A study of Mus musculus with 6 samples.

Results

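Serpins are a family of proteins that mostly trap proteases by offering them a bait loop, and plasminogen activators are the proteases that turn plasminogen into plasmin. Their genes were followed here as the protein-coding genes of the table with a serpin clade symbol (Serpina to Serpini, without *Serping1*) together with *Plau*, *Plat*, *Plaur* and *Plg*. The rule found 45 genes of the 28262 in the table, 41 serpins and 4 genes of the plasminogen system. Of the serpins, 17 belong to clade A, 15 to clade B, 3 to clade E, 2 to clade F and 1 each to clades C, D, H and I.

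RNA-seq was made from Sertoli cells, the somatic cells that nurse the germ cells inside the seminiferous tubules, isolated from testes of 20-day-old C57BL/6 mice and held in culture without treatment. In the 3 *Pa1*F/F libraries, the control, both *Pa1* alleles were floxed, and the genotype label names no Cre. In the 3 *Amh-pa1*-/- libraries, the knockout, the floxed *Pa1* alleles were meant to be deleted by a Cre recombinase under the *Amh* promoter, which acts in Sertoli cells, so RNA of any other cell type in a preparation would come from cells in which that Cre is not meant to act. *Pa1* encodes PTIP-associated protein 1, a subunit of a histone methyltransferase complex, and is unrelated to the plasminogen activators in spite of the similar abbreviation. Its deletion was not checked in the counts, since *Pa1* was not analysed here, and the genotypes are those of the labels. The methods of the study call the replicates biological and state in general that experiments were repeated independently. Neither they nor the labels tie each library to its own animals or culture, so p-values measure the spread between these samples.

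As background, urokinase (*Plau*) and tissue-type activator (*Plat*) cleave plasminogen, and the urokinase receptor (*Plaur*) holds urokinase at the cell surface. The plasmin they form degrades fibrin and matrix proteins, and serpins such as protease nexin-1 (*Serpine2*), protein C inhibitor (*Serpina5*), neuroserpin (*Serpini1*) and PAI-2 (*Serpinb2*) block one or both activators. Sertoli cells are known to secrete plasminogen activators, with an output that varies along the cycle of the seminiferous epithelium.

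Total counts on genes ranged from 13203757 to 16231443 per library, and 3 counts, taken as the floor, stood for 0.185 to 0.227 CPM, the counts of a gene scaled to the size of its library. Values below are CPM on library sizes adjusted with edgeR's TMM factors. Within a genotype, 2 of the 3 libraries were close. These were *Pa1*F/F replicates 1 and 3 (chi-square per degree of freedom 2.22) and *Amh-pa1*-/- replicates 1 and 2 (1.66), whereas the other pairs within a genotype stood at 18.3 to 30.5. *Amh-pa1*-/- replicate 3 was the highest or the lowest knockout library in 19 of the 22 members that could be tested, and in 16 of them it lay closer to the control mean than the other two did. Results that rest on it are therefore also given without it. The knockout group is then the close pair of replicates 1 and 2, so adjusted p-values without replicate 3 reflect their small spread. Since replicate 3 often lay nearest to the control, leaving it out tends to widen the difference. Those values show the weight of that library and are not stronger evidence.

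Of the Sertoli cell markers, *Sox9*, *Wt1*, *Gata4*, *Dhh*, *Cldn11*, *Aard* and *Clu* were read at 216 CPM or more in every library. *Rhox5* and *Trf* stayed at or under 1.05 CPM. The 12 listed markers summed to 16626 to 16906 CPM in control and 10063 to 12904 CPM in knockout libraries, and 4 of the 10 tested ones were lower. *Clu* held most of that sum, and the rest summed to 3466 to 3706 CPM against 2845 to 2953 CPM. Markers of other cell types also differed. Peritubular myoid markers summed to 222 to 283 CPM in control and 828 to 1267.5 CPM in knockout libraries, with 1 of 5 tested genes higher, *Acta2*, which made up most of the sum. Without *Acta2* the sum was 49.4 to 70.2 CPM in control, 25.0 and 19.9 CPM in *Amh-pa1*-/- replicates 1 and 2, and 221 CPM in replicate 3. *Myh11*, *Des* and *Actg2* were highest in *Amh-pa1*-/- replicate 3 and below every control library in replicates 1 and 2 (*Myh11* at 14.7 and 11.2 CPM against 32.7 to 44.1 CPM), and *Cnn1* was highest in replicate 3 as well. *Amh*, whose promoter drives the Cre, also set that replicate apart, at 24.8 CPM against 2.99 and 3.29 CPM in the other knockout libraries and 12.2 to 17.3 CPM in control, as did the endothelial gene *Kdr* (33.0 CPM against 5.06 and 5.44 CPM). Leydig cell markers summed to 794 to 911 CPM against 165 to 288 CPM, with 3 of 3 tested genes lower, and the defining *Cyp17a1* and *Insl3* had at most 3 counts in any library. Macrophage markers summed to 122 to 136 CPM against 75.8 to 92.6 CPM, with 5 of 7 tested genes lower. Without *Mrc1*, which did not pass the test, they summed to 52.7 to 68.5 CPM against 9.89 to 12.5 CPM. Mesothelial markers summed to 7.11 to 12.1 CPM against 31.1 to 39.9 CPM, with 4 of 6 tested genes higher. Endothelial markers summed to 134 to 147 CPM against 78.5 to 120.0 CPM (2 lower and 1 higher of 5). Without *Cdh5*, which held most of it, that sum was 26.1 to 38.8 CPM against 22.1 to 54.2 CPM, highest in *Amh-pa1*-/- replicate 3. Germ cell markers summed to 4.41 to 6.21 CPM against 1.86 to 7.56 CPM (2 lower of 3). Both lower ones, *Ddx4* and *Kit*, had under 10 counts in every knockout library. They reached the test only through the control, so the 2 calls do not describe the list. *Adgre1* and *C1qc* in knockout and *Krt19* and *Muc16* in control libraries were also under 10 counts throughout. The part of these cells in the results below was not tested, and in such bulk samples fewer cells of a type and less RNA per cell cannot be told apart.

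The question put to these genes was how their transcripts differed between Sertoli cells of the control and the *Pa1* knockout. *Serpina3n*, *Serpini1* and *Serpinb1a*, inhibitors of different proteases, fell most (7.37, 4.46 and 4.32 times lower), and *Serpine2*, *Plau*, *Serpina3g* and *Serpinb8* fell as well. *Plaur*, the urokinase receptor, rose 2.63 times. The scarcely read *Serpinb1b* was called higher as well, but it was tested only through its knockout counts. Of the 45 members, 22 passed the filter on low counts (19 serpins, *Plau*, *Plat* and *Plaur*) and 23 did not. A gene that reaches the filter only through the genotype where it is high had to differ, so the counts below describe the tested members and not the family. By edgeR's quasi-likelihood test, 8 of 22 members (36.4%) were lower in *Amh-pa1*-/- cells at a Benjamini-Hochberg adjusted p under 0.05, beside 17.1% of the 14919 tested genes. On the higher side, 3 of 22 (13.6%) passed, beside 18.2% of all tested genes. At a change of at least 2-fold in addition, 7 members (31.8%) were lower, beside 6.56% of tested genes, and 3 (13.6%) were higher, beside 5.44%. Without *Amh-pa1*-/- replicate 3, 12 members were lower and 2 higher at that threshold. Without *Pa1*F/F replicate 2, 6 were lower and 1 was higher. The libraries of both genotypes did not overlap in 15 of 22 members (68.2%), beside 52.4% of tested genes. The median log2 fold change was -0.75 over the tested members and 0.00 over all tested genes. These shares are a description, and no test of the list was made. With the close replicates summed, *Plau*, *Plaur*, *Serpina3g*, *Serpinb8* and *Serpinb1b* were no longer called (edgeR adjusted p = 0.0790, 0.0602, 0.0662, 0.0834 and 0.107).

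**Figure D1:**
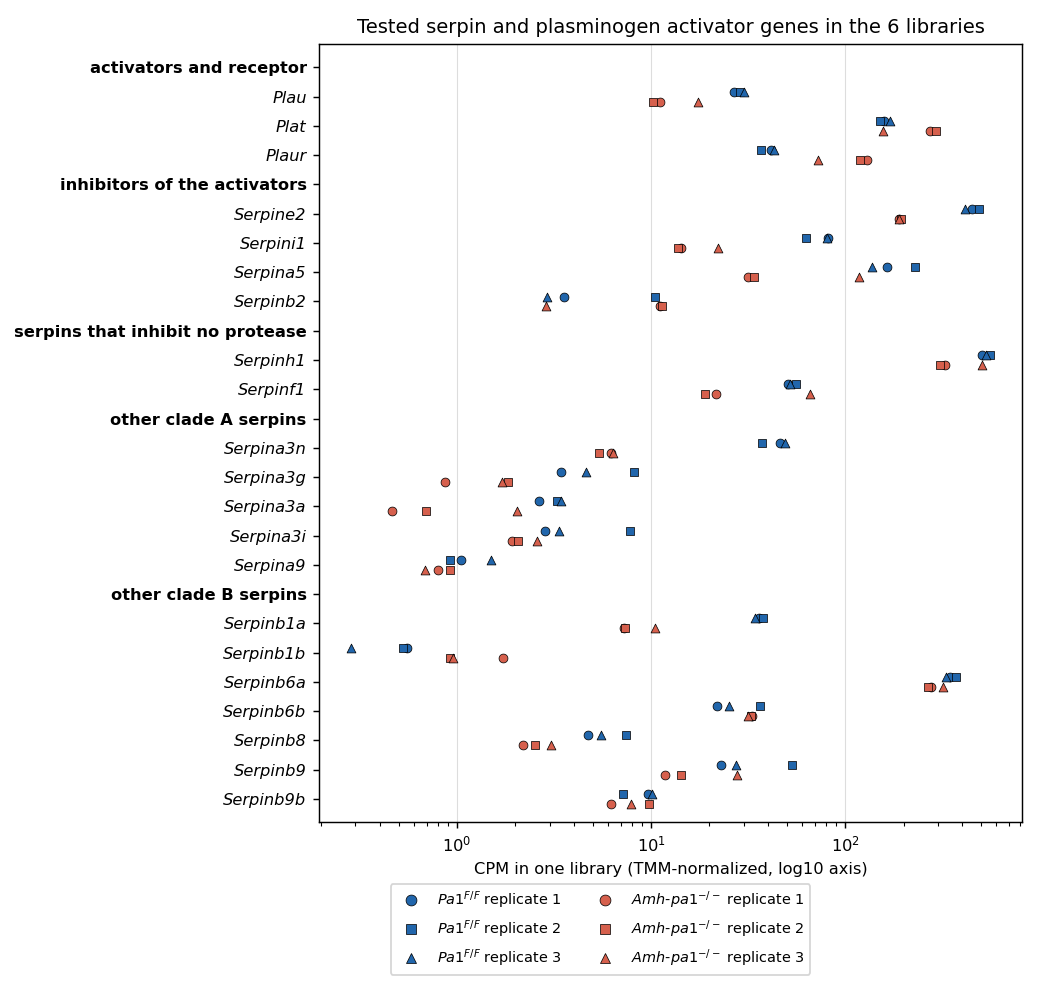
CPM of 21 tested members in each of the 6 libraries on a log10 axis, grouped by role, with *Pa1*F/F libraries in blue and *Amh-pa1*-/- libraries in red and the replicate number given by the symbol. *Serpini1*, *Serpinb1a* and *Serpina3n* lie far apart between the genotypes, while *Plat*, *Serpinf1* and *Serpinb9* have the triangle of knockout replicate 3 among or beside the control points.

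Promoter sequences are shown first for 4 called members, because some members that changed held a searched motif and others held none. RefSeq promoters on build GRCm38.p6, each 250 bases before to 50 after a start, were found for 36 of the 45 members (17 of the 22 tested). A pair of motifs was searched on both strands, TGANTCA (AP-1) and TGACGTCA (CRE), neither of which contains the other. Of the 32851 promoters in the table, 7.81% held the first and 1.79% the second. Among the 36 members with a promoter, counted as genes, 8 had one with TGANTCA and none had TGACGTCA. Of the 8, *Plaur*, *Serpinb8* and *Serpinb2* were tested. *Serpina1a*, *Serpina1b*, *Serpinb5*, *Serpinb7* and *Serpinb11* were too scarcely read to be tested. *Plaur*, which was higher in the knockout, held 1 match 69 bases before its start, and *Serpinb8*, which was lower, held 1 match 23 bases before and 1 match 13 bases after its start. The other 5 members called at 2-fold with a promoter held none, *Serpine2* and *Serpina3n* among them. For *Serpine2* and *Serpinb1b* the RefSeq start lies inside the span of the gene on GRCm38. Bases before the outer end of these genes were not searched. The 250 bases before each start are printed 5′ to 3′ with matches in capitals, for *Plaur* at chr7:24462233-24462482 (+), *Serpinb8* at chr1:107589756-107590005 (+), *Serpine2* at chr1:79858666-79858915 (−) and *Serpina3n* at chr12:104406458-104406707 (+).
Plaur: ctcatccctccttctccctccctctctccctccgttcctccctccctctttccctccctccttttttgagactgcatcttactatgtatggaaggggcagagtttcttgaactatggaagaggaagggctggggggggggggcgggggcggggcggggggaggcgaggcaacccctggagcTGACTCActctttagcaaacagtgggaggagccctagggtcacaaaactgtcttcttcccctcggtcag
Serpinb8: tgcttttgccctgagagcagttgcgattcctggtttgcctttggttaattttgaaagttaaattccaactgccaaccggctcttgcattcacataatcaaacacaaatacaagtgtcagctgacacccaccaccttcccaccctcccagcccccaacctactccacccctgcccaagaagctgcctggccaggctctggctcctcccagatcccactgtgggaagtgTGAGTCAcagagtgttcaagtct
Serpine2: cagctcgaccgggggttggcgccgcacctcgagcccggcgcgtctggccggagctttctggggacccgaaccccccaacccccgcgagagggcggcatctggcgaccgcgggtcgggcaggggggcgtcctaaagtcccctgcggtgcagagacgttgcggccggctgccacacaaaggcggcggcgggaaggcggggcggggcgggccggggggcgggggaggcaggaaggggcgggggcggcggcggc
Serpina3n: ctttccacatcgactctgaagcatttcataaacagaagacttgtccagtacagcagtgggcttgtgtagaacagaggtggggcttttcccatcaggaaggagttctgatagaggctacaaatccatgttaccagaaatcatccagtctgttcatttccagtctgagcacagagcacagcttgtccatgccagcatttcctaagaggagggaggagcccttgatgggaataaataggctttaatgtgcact
A match is a run of letters and does not show that a factor binds there. The table held no promoter for *Plau*, *Plat* or *Serpinb1a*. Within the clade A cluster, the promoters of *Serpina3n* and *Serpina3c* shared an identical run of 64 bases, beside at most 19 in the other pairs among the 7 Serpina3 members with a promoter, 1 promoter each. *Serpina3m* had none in the table.

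Of the activators and their receptor, *Plau* fell, *Plaur* rose and *Plat* did not pass the test. Positions are on build GRCm38. *Plau* (chr14:20836660-20843385, +) was read at 26.8, 28.7 and 30.2 CPM in control and at 11.1, 10.3 and 17.4 CPM in knockout libraries, in the order of replicates 1, 2 and 3, which all lists below keep. All knockout libraries lay below all control libraries, with replicate 3 nearest to them. *Plau* fell with a log2 fold change of -1.14 (SE 0.20, edgeR adjusted p = 0.00587), and without *Amh-pa1*-/- replicate 2 the change was -0.99, just under 2-fold.

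*Plaur* (chr7:24462484-24475968, +), the receptor that binds urokinase, moved the other way. It stood at 41.6, 37.0 and 43.1 CPM in the control libraries and at 129.6, 119 and 72.1 CPM in the knockout libraries, which were all higher, with replicate 3 the lowest of them. The log2 fold change was 1.40 (SE 0.21, edgeR adjusted p = 0.00339).

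*Plat* (chr8:22757727-22782844, +), the tissue-type activator, was read at 159, 151 and 169 CPM in control and at 273, 292 and 157 CPM in knockout libraries. *Amh-pa1*-/- replicates 1 and 2 were above every control library, and replicate 3 lay among them. The log2 fold change of 0.59 (SE 0.22) did not pass the test (edgeR adjusted p = 0.0742), and without replicate 3 it was 0.83 (adjusted p = 8.10e-05). *Plg*, the plasminogen gene, had 1 count in 1 library, so the substrate of both activators was not detectable in this RNA.

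Of the inhibitors of the activators described here, *Serpine2* and *Serpini1* fell, and *Serpina5* and *Serpinb2* did not pass the test. *Serpine2*, which encodes protease nexin-1, an inhibitor of thrombin, urokinase and plasmin (chr1:79794197-79861180, −), was read at 452, 488 and 417 CPM in control and at 189.8, 194 and 189 CPM in knockout libraries. The knockout libraries nearly coincided, replicate 3 included, and none overlapped the control. The log2 fold change was -1.24 (SE 0.07, edgeR adjusted p = 0.000114).

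*Serpini1*, which encodes neuroserpin, an inhibitor of tissue-type activator (chr3:75557547-75643495, +), was read at 81.2, 62.6 and 80.7 CPM in control and at 14.3, 13.8 and 22.2 CPM in knockout libraries. Every knockout library was below every control library. *Serpini1* fell with a log2 fold change of -2.16 (SE 0.21, edgeR adjusted p = 0.000682).

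*Serpina5*, which encodes protein C inhibitor (chr12:104101113-104106137, +), was read at 163, 229 and 137 CPM in control and at 31.5, 33.9 and 118 CPM in knockout libraries. The genotypes did not overlap, but replicate 3 stood close to the lowest control library and far from the other two knockout libraries. The log2 fold change of -1.53 (SE 0.52) did not pass the test (edgeR adjusted p = 0.0611), and without replicate 3 it was -2.43 (adjusted p = 0.000237). The same replicate held the highest *Myh11*, at 109 CPM against 11.2 and 14.7 CPM in the other knockout libraries, beside the higher *Amh* and *Kdr* given above, and the part of these in *Serpina5* was not tested. *Serpinb2*, which encodes PAI-2, was read at 3.57, 10.5 and 2.92 CPM in control and at 11.1, 11.4 and 2.86 CPM in knockout libraries, where 1 library of each genotype was out of step with its own group (log2 fold change 0.57, edgeR adjusted p = 0.529). It was 0.99 without *Amh-pa1*-/- replicate 3 and 1.37 without *Pa1*F/F replicate 2, and neither passed (edgeR adjusted p = 0.152 and 0.144).

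**Figure D2:**
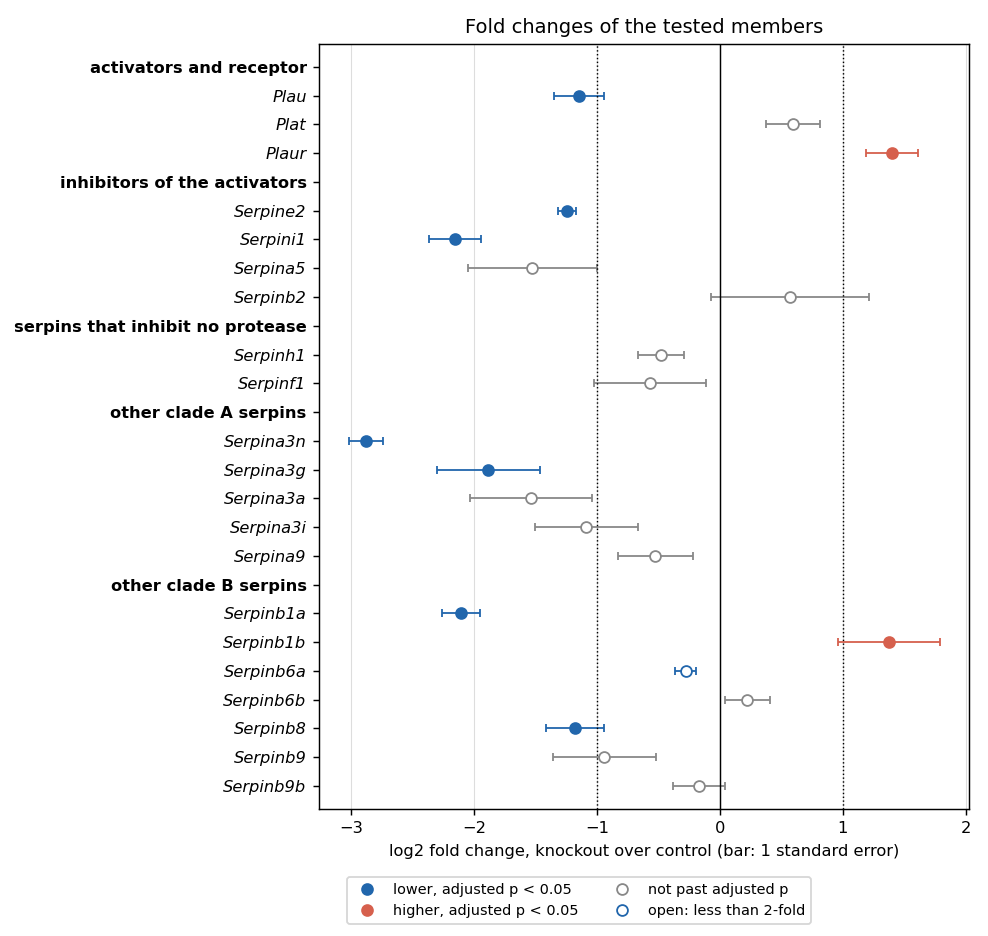
Log2 fold change of knockout over control with its standard error for 21 tested members, grouped by role; filled symbols are changes past 2-fold with an adjusted p under 0.05, and dotted lines mark 2-fold. The 7 filled lower members run from *Serpina3n* at -2.88 to *Plau* at -1.14, and *Plaur* and *Serpinb1b* are filled on the higher side.

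Comparing levels between genes needs a correction for length, so CPM were divided by the length of the canonical transcript in kb. Among the members named here, *Serpine2* (205 ± 16.1 CPM per kb, SD, n = 3) and the collagen chaperone *Serpinh1* (190 ± 9.85) stood highest in control cells, within the larger of their SDs, followed by *Serpinb6a* (109 ± 6.60) and *Serpina5* (80.4 ± 21.6). In knockout cells *Serpinh1* stood at 136 ± 39.0, *Plat* at 93.1 ± 28.2, *Serpinb6a* at 89.5 ± 8.44 and *Serpine2* at 86.3 ± 1.18 CPM per kb, and the last 3 lay within the spread of *Plat*. With the union of all exons as the length, *Serpinh1* stood above *Serpine2* in both genotypes, so the order depends on which transcript is made.

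The ratio of receptor to urokinase transcripts per kb, *Plaur* over *Plau*, was 2.37, 1.97 and 2.17 in control and 17.8, 17.7 and 6.33 in knockout libraries. The mean ratio was 6.43 times higher in the knockout, with replicate 3 between the groups. The ratio of *Plau* to *Plat* was 0.186, 0.209 and 0.197 in control and 0.0447, 0.0387 and 0.122 in knockout libraries, all lower, with replicate 3 again nearest to the control. These ratios describe transcripts, and enzyme activity was not measured here.

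Among serpins that inhibit no protease, *Serpinh1* and *Serpinf1* were tested, and neither passed. *Serpinh1* (HSP47), which folds procollagen in the endoplasmic reticulum, was read at 505, 561 and 533 CPM in control and at 327, 309 and 508 CPM in knockout libraries, where replicate 3 lay just above the lowest control library. Its log2 fold change was -0.48 (edgeR adjusted p = 0.0856) and -0.74 without replicate 3 (adjusted p = 0.000120). *Serpinf1*, which encodes the antiangiogenic factor PEDF, was read at 51.0, 55.8 and 51.7 CPM in control and at 21.6, 19.1 and 66.2 CPM in knockout libraries, and replicate 3 exceeded every control library. The log2 fold change was -0.57 (edgeR adjusted p = 0.369) with all libraries and -1.38 (adjusted p = 5.96e-05) without replicate 3.

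The clade A serpins on chromosome 12 included the strongest decrease of any tested member. *Serpina3n* (chr12:104406729-104414329, +), an acute-phase inhibitor of chymotrypsin-like proteases and granzyme B, was read at 46.3, 37.4 and 48.9 CPM in control and at 6.24, 5.36 and 6.34 CPM in knockout libraries. The knockout libraries, replicate 3 included, lay close together and far below the control. *Serpina3n* fell with a log2 fold change of -2.88 (SE 0.14, edgeR adjusted p = 8.05e-05), a level 7.37 times lower.

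*Serpina3g* was read at 3.45, 8.16 and 4.64 CPM in control, highest in *Pa1*F/F replicate 2, and at 0.863, 1.84 and 1.70 CPM in knockout libraries. It fell with a log2 fold change of -1.88 (SE 0.42, edgeR adjusted p = 0.0141). Since 38.6% of the 50-base words of its transcripts also occur in neighbouring Serpina3 genes or pseudogenes, its counts are uncertain. The other tested clade A genes did not pass the test. *Serpina3a* was read at 2.65, 3.29 and 3.42 CPM against 0.465, 0.690 and 2.04 CPM (log2 fold change -1.53, edgeR adjusted p = 0.0505, and -2.43 with adjusted p = 0.000984 without replicate 3). On all 6 libraries it passed by DESeq2's Wald test (adjusted p = 0.0215) and limma-voom (adjusted p = 0.0243), among other alternatives. *Serpina3i* was read at 2.83, 7.84 and 3.35 CPM against 1.93, 2.07 and 2.59 CPM (log2 fold change -1.09, edgeR adjusted p = 0.0859), with *Pa1*F/F replicate 2 apart from the rest. In both genes the genotypes did not overlap. *Serpina9* stayed low, at a mean of 1.16 CPM against 0.799 CPM (edgeR adjusted p = 0.220).

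Clade B serpins act mostly inside cells, against proteases of granules and lysosomes. *Serpinb1a* (chr13:32842092-32851185, −), an inhibitor of neutrophil serine proteases, was read at 36.0, 37.6 and 34.5 CPM in control and at 7.24, 7.35 and 10.4 CPM in knockout libraries. The genotypes were far apart, and *Serpinb1a* fell with a log2 fold change of -2.11 (SE 0.16, edgeR adjusted p = 0.000256).

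Its close relative *Serpinb1b* moved the other way at a level near the floor of detection, with 9, 8 and 4 counts in control and 26, 12 and 14 counts in knockout libraries (0.555, 0.527 and 0.285 CPM against 1.73, 0.919 and 0.954 CPM). It was called higher with a log2 fold change of 1.38 (SE 0.41, edgeR adjusted p = 0.0396). *Serpinb1b* passed the filter on low counts only through its knockout libraries, so it had to differ. The adjusted p therefore cannot decide whether it rose. The call was lost when any one of the libraries other than *Amh-pa1*-/- replicate 3 was left out, with adjusted p from 0.0553 to 0.125.

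*Serpinb8* (chr1:107590006-107610484, +), whose protein inhibits furin-like proteases, was read at 4.75, 7.44 and 5.49 CPM in control and at 2.19, 2.53 and 3.07 CPM in knockout libraries, without overlap. It fell with a log2 fold change of -1.18 (SE 0.24, edgeR adjusted p = 0.00954), and -0.98 without *Pa1*F/F replicate 2. *Serpinb6a*, among the most counted members, was read at 348, 372 and 329.7 CPM in control and at 278, 267 and 319 CPM in knockout libraries. It fell by less than 2-fold (log2 fold change -0.28, SE 0.08, edgeR adjusted p = 0.0409), and the call was lost without any one of the libraries other than *Amh-pa1*-/- replicate 3. The gene overlaps Ripk1 and Nqo2 on the opposite strand, and a strand setting for counting is not given in the sources used here.

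*Serpinb9*, the granzyme B inhibitor, was read at 23.0, 52.9 and 27.2 CPM in control and at 11.8, 14.2 and 27.6 CPM in knockout libraries. Replicate 3 of the knockout lay within the control range, and *Pa1*F/F replicate 2 was the highest library. The log2 fold change of -0.94 did not pass (edgeR adjusted p = 0.124), and was -1.40 (adjusted p = 0.0196) without replicate 3. *Serpinb6b* was read at 21.9, 36.4 and 25.2 CPM against 33.2, 32.6 and 31.5 CPM (log2 fold change 0.22, edgeR adjusted p = 0.385), and at 0.46 (adjusted p = 0.0180) without *Pa1*F/F replicate 2. *Serpinb9b* was read at 9.61, 7.18 and 10.1 CPM against 6.24, 9.81 and 7.90 CPM (edgeR adjusted p = 0.569), with the genotypes overlapping. *Pa1*F/F replicate 2 was the highest control library for *Serpinb2*, *Serpinb6b*, *Serpinb9*, *Serpina3g* and *Serpina3i*, while the listed macrophage markers summed to 122 CPM in that library against 136 and 124 CPM in the other control libraries. Within that list, *Mrc1*, *Adgre1*, *Csf1r* and *Cd163* were highest in it, and *Lyz2*, *Cd68*, *C1qa*, *C1qb*, *C1qc* and *Cx3cr1* were lowest. The part of these cells was not tested.

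**Figure D3:**
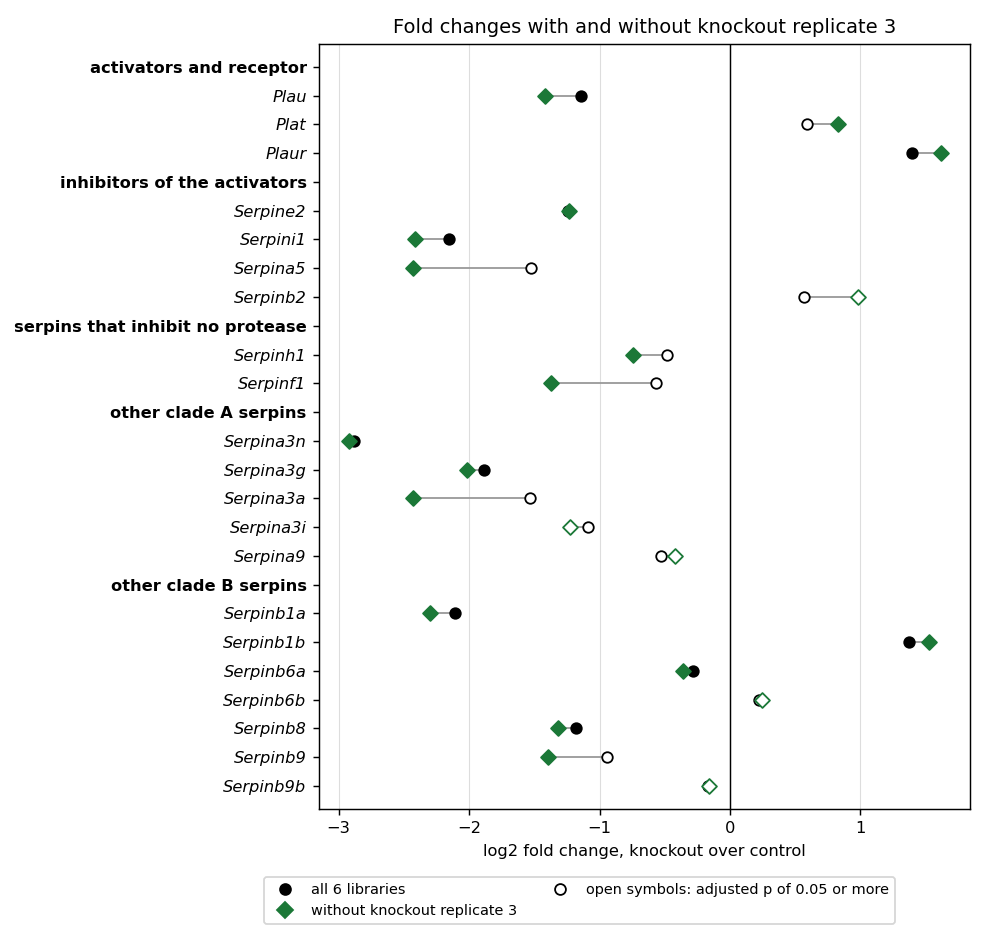
Log2 fold change of 21 tested members with all 6 libraries (black circles) and without *Amh-pa1*-/- replicate 3 (green diamonds), with open symbols where the adjusted p is 0.05 or more. *Serpina5*, *Serpinf1* and *Serpina3a* move furthest to the lower side, and *Serpine2* and *Serpina3n* hardly move.

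Among the 23 untested members, 15 had at most 3 counts in every library. *Serpina3c* had 10, 8 and 14 counts in control and 0 in all 3 knockout libraries, at least 3.38-fold lower against the floor of 3 counts per library, and it was called lower in 3 alternatives that tested it (DESeq2's Wald test, no low-count filter and close replicates summed). *Serpina6* had 5, 11 and 9 against 0, 0 and 3 counts, and *Serpina12* had 11, 7 and 10 against 2, 2 and 4 counts. *Serpinb7* went the other way with 3, 1 and 0 against 13, 4 and 21 counts. It was called higher by DESeq2's Wald test, with no low-count filter, and without *Pa1*F/F replicate 1 or *Amh-pa1*-/- replicate 2. *Serpina12* was called lower only without *Amh-pa1*-/- replicate 3. *Serpina3f* had 1, 18 and 2 against 1, 0 and 0 counts, nearly all in *Pa1*F/F replicate 2. *Serpina3b* (5, 1 and 1 against 0, 0 and 1), *Serpinf2* (4, 4 and 3 against 0, 0 and 2) and *Serpina1b* (0, 0 and 3 against 3, 3 and 5) were at the limit of what these libraries can count.

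The genes that work with the members were taken from a list of 56 partners, of which 47 were in the table and 31 were tested. By edgeR's test, 9 were lower and 7 higher at an adjusted p under 0.05, and 6 lower and 4 higher by at least 2-fold. These are 29.0% and 22.6% at the adjusted p, beside 17.1% and 18.2% of all tested genes, and 19.4% and 12.9% at 2-fold, beside 6.56% and 5.44%. Without *Pa1*F/F replicate 1, 2 partners were lower and 3 higher by at least 2-fold. The median log2 fold change of the tested partners was -0.14. Of 5 endocytic receptors of the LDL receptor family and their chaperone, which take up protease and serpin complexes, 3 were lower and 1 was higher. *Vldlr* fell (log2 fold change -1.90, SE 0.18, edgeR adjusted p = 0.000651), as did *Lrp8* (-1.12, SE 0.21, edgeR adjusted p = 0.00719, and -0.96 without *Pa1*F/F replicate 1). *Lrp2*, or megalin, was read at 7.58, 2.37 and 11.8 CPM in control and 229, 244 and 119 CPM in knockout libraries and rose (log2 fold change 4.77, SE 0.54, edgeR adjusted p = 0.00117). *Lrp1*, which takes up complexes of proteases with their inhibitors, fell by less than 2-fold (-0.74, edgeR adjusted p = 0.000875).

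Of 8 plasminogen binding sites and cofactors, 1 was lower and 3 were higher. *S100a10*, which holds plasminogen and its activator at the membrane together with annexin A2, rose (1.08, SE 0.11, edgeR adjusted p = 0.000763), and its partner *Anxa2* rose by less than 2-fold (0.68, edgeR adjusted p = 0.00305). *Itgb3*, a vitronectin receptor chain, fell (-1.03, edgeR adjusted p = 0.00363), and by less than 2-fold without *Pa1*F/F replicate 1 or 2 or *Amh-pa1*-/- replicate 3 (-0.88 in the last case). Among 9 clotting cofactors and protease-activated receptors, 3 were lower and 1 higher. *F2rl1*, a receptor cut by trypsin-like proteases, rose (1.73, edgeR adjusted p = 0.0337), while *F2rl2* and *F2rl3*, thrombin receptors, fell (-1.28 and -1.22), and the main thrombin receptor *F2r* did not pass (edgeR adjusted p = 0.131). Single libraries ended these 3 calls. *F2rl1* was lost without *Pa1*F/F replicate 1 or 2 (edgeR adjusted p = 0.114 and 0.0959) and stood at 1.14 without *Amh-pa1*-/- replicate 3 (adjusted p = 0.0379). *F2rl2* was lost without *Pa1*F/F replicate 1 or 3 or *Amh-pa1*-/- replicate 2 (edgeR adjusted p up to 0.0777), and *F2rl3* without any one library other than *Amh-pa1*-/- replicate 3 (edgeR adjusted p up to 0.0680).

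Of the 2 tested serpin-regulated proteases, *Htra1* fell (-2.04, SE 0.15, edgeR adjusted p = 0.000257) and *St14* did not pass (edgeR adjusted p = 0.709). Of 7 protease inhibitors outside the family, 1 was lower and 2 higher. *A2m*, a broad trap of proteases, was read at 2.34, 3.69 and 2.78 CPM in control and 12.7, 13.4 and 32.8 CPM in knockout libraries and rose (2.74, SE 0.43, edgeR adjusted p = 0.00388), with a log2 fold change of 2.15 without *Amh-pa1*-/- replicate 3. The fibrin chains *Fga*, *Fgb* and *Fgg* were listed but were not in the table, so they could not be analysed. With the close replicates summed, *Lrp8*, *F2rl1*, *F2rl2* and *F2rl3* were no longer called (edgeR adjusted p from 0.0870 to 0.109).

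**Figure D4:**
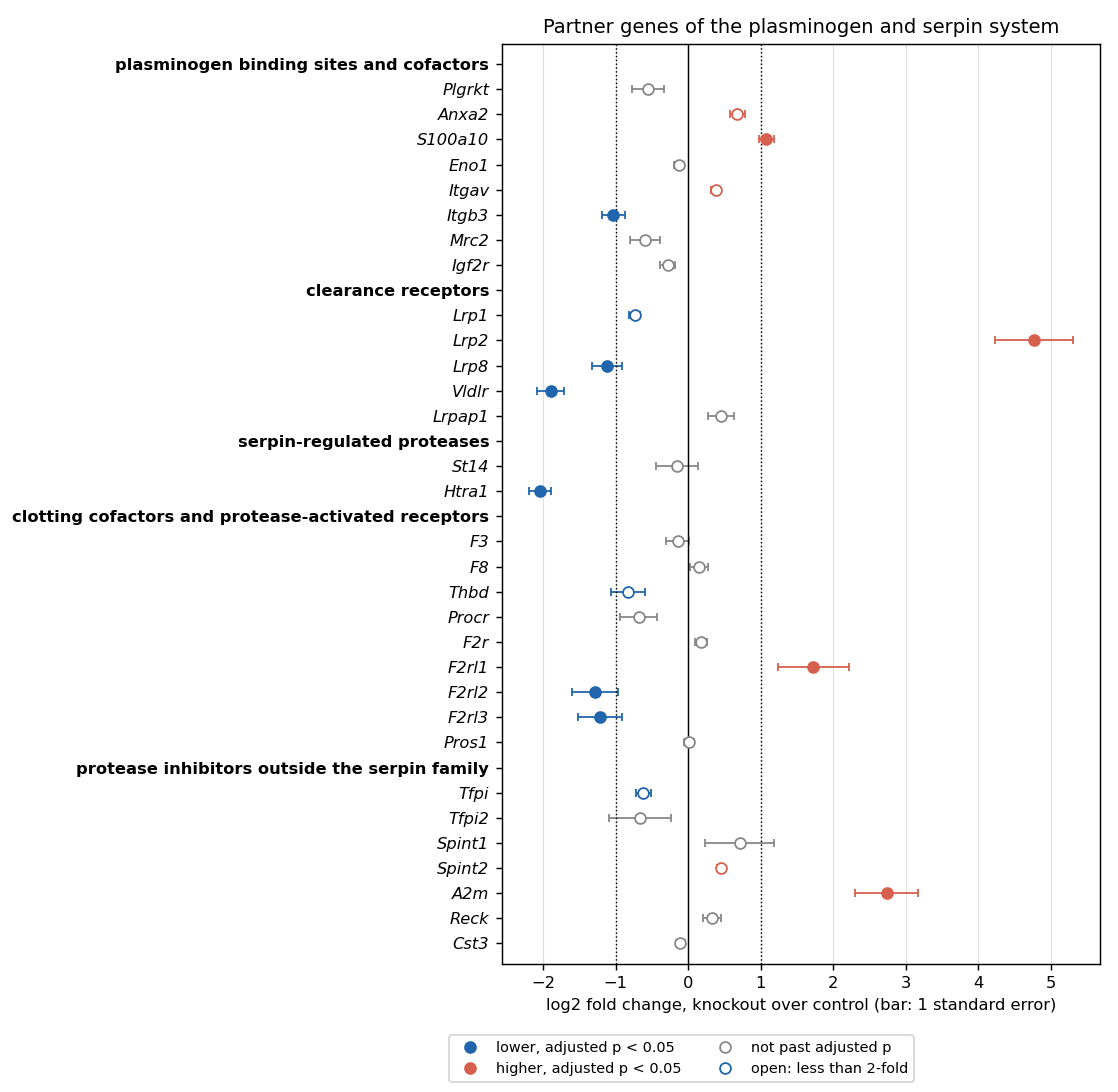
Log2 fold change of knockout over control with its standard error for the 31 tested partner genes, grouped by role; filled symbols are changes past 2-fold with an adjusted p under 0.05, and dotted lines mark 2-fold. *Lrp2* at 4.77 and *A2m* at 2.74 are the highest, and *Htra1* at -2.04 and *Vldlr* at -1.90 the lowest.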

How the data were processed

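Reads of 6 RNA-seq libraries were aligned by the authors to GRCm38 with HISAT2 2.1.0 and counted per gene with HTSeq 0.6.0, per the submitters' processing notes, and raw counts were deposited without normalization. A strand setting for the counting is not given in the sources used here. The table also holds the authors' own comparison of the genotypes (mean, fold change, p-value and adjusted p-value), which was not used. The methods of the study name DEGseq; here edgeR 4.0.16 in R 4.3.3 was run on the counts, with filterByExpr by group (minimum count 10, minimum total 15), TMM factors (0.990 to 1.03) and the quasi-likelihood F-test over all 14919 tested genes, at the study's thresholds (adjusted p under 0.05 and a log2 change of 1 or more either way). The SE is the absolute log2 fold change over the square root of F.

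The members, the partner and marker lists and the alternatives were chosen with earlier results of these data known. Members were named with values if called or at a mean of at least 10 CPM, other tested members briefly, and untested ones if over 3 counts in a library. 1 of the tested members is counted but is not reported here, nor drawn in the figures. Partner genes were named if called at 2-fold, and *Lrp1*, *Anxa2*, *F2r* and *St14* were named after their values were seen. Lengths for CPM per kb are those of GENCODE vM39 canonical transcripts, and 50-base words were compared over its transcripts. Promoters came from RefSeq. Alternatives were DESeq2 1.42.0, limma 3.58.1 (voom), other scaling and filters, glmTreat, summed close replicates, a replicate block and leaving out each library. Steps were tested on simulated counts drawn independently for each library (90.8% of 195 changed genes recovered, 4.84% of calls false). The draw held no close replicates, so it does not show how the test behaves with them. Python 3.11.15 was used for tables and plots. Counts cover counting error only, since reads without molecular identifiers are not independent molecules.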

Additional observations from a re-analysis of the deposited data

How the results depend on the processing

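Over 328 pairs of a member and an alternative, 280 kept direction and side of an adjusted p of 0.05 whatever the fold, 30 lost the call, 18 gained one and none changed direction. On all 6 libraries, *Serpina3a* gained a call with DESeq2 size factors, DESeq2's Wald test, limma-voom, no low-count filter and the replicate block. *Serpina5* gained one with limma-voom and no low-count filter, *Plat* with the Wald test and no low-count filter, and *Serpinb9* and *Serpinh1* with the Wald test. Tested against a log2 fold change of 1 (glmTreat), 4 members were called lower and 0 higher (1 at an unadjusted p under 0.05), and 2 partners lower and 2 higher. With the close replicates summed, which leaves 2 libraries per genotype, 5 members were lower and 0 higher (4 at an unadjusted p under 0.05), and 3 partners were lower and 3 higher. *Serpine2*, *Serpina3n*, *Serpinb1a* and *Serpini1* were called under glmTreat and with summed replicates, and *Plau*, *Plaur*, *Serpina3g*, *Serpinb8*, *Serpinb1b* and *Serpinb6a* in neither, while *Serpina3c* was called with summed replicates. On all 6 libraries, DESeq2's Wald test called 3 members higher, without *Serpinb1b* and with *Serpinb7*. Without a fold threshold, 7 partners were higher. Leaving out each replicate in turn gave 6 to 12 members lower and 1 to 3 higher, with 12 lower without *Amh-pa1*-/- replicate 3 and 1 higher without *Pa1*F/F replicate 2, and 2 to 6 partners lower and 3 to 5 higher.

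The replicate numbers did not pair the libraries (correlation of deviations 0.108, -0.164 and -0.179 for numbers 1, 2 and 3). The highest correlation was 0.214, between *Pa1*F/F replicate 2 and *Amh-pa1*-/- replicate 3, which a block by replicate number does not join. With the replicate block, 8 members were lower and 2 higher, and 6 partners lower and 4 higher. Depth limits the 23 untested members, whose folds rest on few counts.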
